A study of Drosophila melanogaster with 2 samples.

Results

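The 261 microRNA genes described here are all genes of the fly annotation whose symbol starts with mir-, with let-7 and bantam among them, except mir-1, out of 17873 annotated genes. Genes within 5 kb of each other were joined, which gave 203 clusters, of which 177 held 1 gene and 26 held several. Chromatin bound by Twist was measured by ChIP-seq (chromatin immunoprecipitation followed by sequencing) with an antibody against GFP. The material was whole Drosophila melanogaster embryos of mixed sex, 2 to 12 h old, of a transgenic line that carries Twist with GFP fused to its C-terminal end. The single group held 2 biological replicates, both with the transgene, whose promoter the labels do not name, and no group of another genotype, age or treatment was compared. The question put to the data is which microRNA genes had a Twist summit, the position of highest signal in a peak, within 5 kb.

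The IDR list, cut at a threshold of reproducibility between replicates, held 6516 peaks. The longer pooled list, called on both replicates together, held 30000. At all clusters with an IDR summit, the highest summit had the same signal rank in each list. Peaks were ranked by the deposited signal value within their list, with rank 1 the highest, and IDR peaks were also looked up in each replicate's own list by a summit within 100 bp. Read depth is not given by peak lists and is unknown here, so the intervals below cover the counting of genes or summits only. In whole embryos of this age range, binding in few cells and weak binding in many cells cannot be told apart.

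MicroRNAs are short RNAs cut from hairpins in longer primary transcripts. They pair with messenger RNAs mainly through their seed, bases 2 to 8, and lower the stability and translation of those messengers. In flies, microRNA genes lie in introns of protein-coding genes, on their own non-coding primary transcripts, or in tandem clusters. Twist is a basic helix-loop-helix protein that binds E-boxes and directs formation of the mesoderm. MicroRNA genes are among the genes through which developmental transcription factors are known to act in muscle, growth and the nervous system.

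The mature sequences that follow belong to clusters with the highest Twist summits, to seed families with a summit at some of their genes only, or, for bantam, mir-iab-4, mir-iab-8 and let-7, to microRNAs of well-known role described further on. They were read 5′ to 3′ from the RefSeq annotation of the Release 6 (dm6) genome, and capitals mark the seed.
mir-9377-3p (chrX): cUUGAUGGggagaaggagagg
mir-9388-3p (chr3L): uGUAGUACauacauacauaugu
mir-2282-3p (chr3L): aUCGGUGAgcuaaaaauagaau
mir-279-3p (chr3R): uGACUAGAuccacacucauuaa
mir-996-3p (chr3R): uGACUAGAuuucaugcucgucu
mir-9a-5p (chr3L): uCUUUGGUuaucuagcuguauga
mir-9b-5p (chr2L): uCUUUGGUgauuuuagcuguaug
mir-9c-5p (chr2L): uCUUUGGUauucuagcuguaga
mir-92a-3p (chr3R): cAUUGCACuugucccggccuau
mir-92b-3p (chr3R): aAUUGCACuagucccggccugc
mir-ban-3p (bantam, chr3L): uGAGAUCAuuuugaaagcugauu
mir-2a-2-3p (chr2L): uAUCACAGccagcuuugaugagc
mir-13a-3p (chr3R): uAUCACAGccauuuugaugagu
mir-11-3p (chr3R): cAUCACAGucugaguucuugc
mir-iab-4-5p (chr3R): aCGUAUACugaauguauccuga
mir-iab-8-5p (chr3R): uUACGUAUacugaagguauaccg
mir-let7-5p (let-7, chr2L): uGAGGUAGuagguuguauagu
A mature entry was found for 259 of the 261 genes, with 479 entries in all and 424 different seeds. Of these seeds, 33 were shared by 2 or more genes.

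The genome sequence at the 6 highest summits within 5 kb of a microRNA gene is printed to show the bound windows, with and without CATATG or CACATG. Other forms of the E-box were not searched, so a window without these may hold another. Each window spans 101 bases centred on the summit, on the forward strand of Release 6 (dm6), and capitals mark the E-boxes CATATG and CACATG, the latter also as its reverse complement CATGTG. Where CACATG and CATGTG overlap, both were counted.
mir-9377, IDR rank 5 (chrX:12666505-12666605): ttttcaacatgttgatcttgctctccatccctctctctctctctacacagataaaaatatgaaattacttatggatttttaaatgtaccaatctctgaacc
mir-9388, IDR rank 18 (chr3L:22943622-22943722): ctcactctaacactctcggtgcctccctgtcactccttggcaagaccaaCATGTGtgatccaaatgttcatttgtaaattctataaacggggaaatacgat
mir-2282, IDR rank 26 (chr3L:3408955-3409055): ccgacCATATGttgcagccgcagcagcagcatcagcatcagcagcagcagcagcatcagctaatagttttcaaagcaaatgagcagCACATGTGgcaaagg
mir-2282, IDR rank 89 (chr3L:3410060-3410160): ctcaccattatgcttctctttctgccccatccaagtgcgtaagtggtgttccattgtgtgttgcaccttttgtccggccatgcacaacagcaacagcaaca
mir-279, IDR rank 114 (chr3R:29214397-29214497): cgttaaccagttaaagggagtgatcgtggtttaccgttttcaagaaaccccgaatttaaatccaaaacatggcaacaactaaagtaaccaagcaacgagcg
mir-9377, IDR rank 184 (chrX:12664493-12664593): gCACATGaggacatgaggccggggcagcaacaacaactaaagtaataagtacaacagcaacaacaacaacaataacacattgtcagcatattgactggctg
The windows at ranks 5, 89 and 114 hold neither E-box, and the window at rank 26 holds 3 matches.

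Fewer microRNA genes than annotated genes in general lay near a Twist summit. An IDR summit was found within 5 kb of 84 of 261 microRNA genes, or 32.2% (95% Wilson interval 26.8 to 38.1), against 47.9% of all annotated genes. Counted by cluster, 72 of 203 had an IDR summit (35.5%, interval 29.2 to 42.3). With the pooled list the difference was smaller, at 169 of 261 genes (64.8%, interval 58.8 to 70.3) against 68.2% of all annotated genes. Of the 131 clusters without an IDR summit, 54 had a summit in the pooled list and 77 had none in either list. A longer gene covers more sequence, and a hairpin is short, with a median of 92 bp and a range of 50 to 174 bp. Measured from gene midpoints, the shares were 31.0% of microRNA genes and 39.4% of all genes. Among the 763 other annotated genes no longer than 174 bp, 47.4% had an IDR summit. This set was not split by class and is not a uniform control for length. Classes of non-coding genes differed widely, with 41.0% for tRNA genes and 78.1% for snoRNA genes of any length.

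Other classes of non-coding genes had higher shares in the IDR list. The share was 41.0% for the 312 tRNA genes (interval 35.7 to 46.6, which overlaps that of microRNA genes) and 78.1% for the 269 snoRNA genes (interval 72.7 to 82.6). For the 2558 other genes of the ncRNA class it was 41.4% (interval 39.5 to 43.3), and this class includes the long non-coding genes. Measured from midpoints it was 38.0% (interval 36.1 to 39.9), which overlaps the interval of microRNA genes (31.0%, 25.7 to 36.9). In the pooled list the order differed, with 64.8% of microRNA genes, 60.8% of the other ncRNA class and 78.2% of tRNA genes. Within the microRNA genes the share was lowest for hairpins in no gene on their own strand, though the intervals overlap. It was 38.2% for the 136 hairpins in a protein-coding gene on the same strand (interval 30.5 to 46.6) and 34.0% for the 47 in a non-coding gene (interval 22.2 to 48.3). It was 20.5% for the 78 in no gene on their strand (interval 13.0 to 30.8), of which 27 overlap a gene on the other strand. Genes of a cluster share summits and were counted singly here. The 78 include all genes of mir-959 to mir-964, mir-310 to mir-992 and mir-982 to mir-984, none with an IDR summit. The 47 include the 8 genes of the mir-309 cluster, also with none. The 34 hairpins that span a whole intron, as mirtrons do, had a summit in 10 cases (29.4%, interval 16.8 to 46.2). The other 69 intronic hairpins had one in 29 cases (42.0%, interval 31.1 to 53.8), and these intervals overlap. The share was nearly equal by nearness to a start, at 17 of 52 hairpins within 500 bp of an annotated start and 67 of 207 farther away (32.7% and 32.4%).

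**Figure D1:**
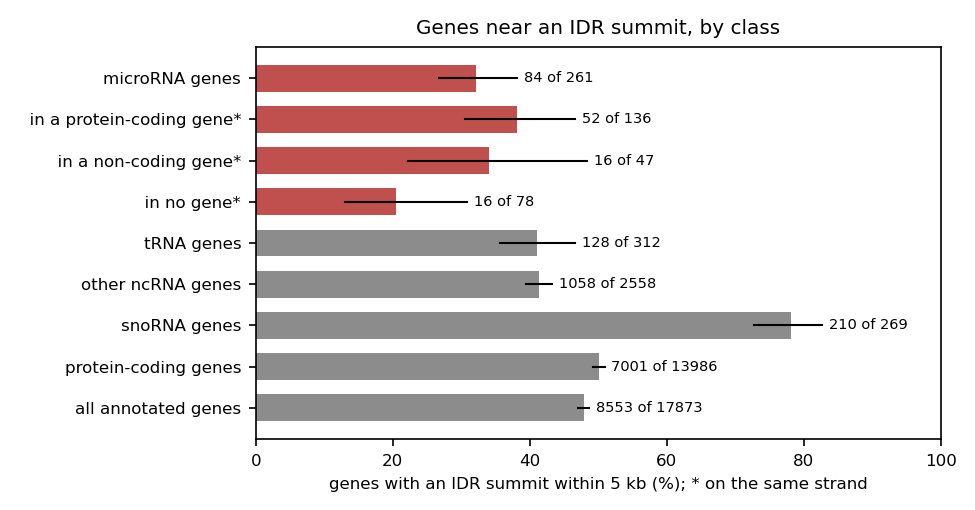
Percentage of genes with an IDR summit within 5 kb (horizontal axis) for microRNA genes, microRNA genes split by a host gene on the same strand (red, starred), and other gene classes (grey); black lines are 95% Wilson intervals and the counts stand beside them. MicroRNA genes stand at 32.2%, below tRNA genes at 41.0% and all annotated genes at 47.9%.

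The share varied among chromosomes. On the X chromosome 9 of 40 clusters had an IDR summit (22.5%, interval 12.3 to 37.5), and 10 of 58 microRNA genes (17.2%, interval 9.64 to 28.9), while 46.3% of all annotated X genes had one. On 3R it was 20 of 49 clusters and 27 of 58 genes (46.6%, interval 34.3 to 59.2), beside 48.8% of all genes there. The intervals for genes of X and 3R did not overlap, but genes of a cluster share summits, and the intervals for clusters (12.3 to 37.5 and 28.2 to 54.8) did overlap. The cluster counts on the other arms were 17 of 40 on 2L, 12 of 40 on 2R, 13 of 30 on 3L and 1 of 2 on chromosome 4. Of all annotated genes, 47.1% on 2L, 48.9% on 2R, 50.3% on 3L and 43.0% on chromosome 4 had an IDR summit. A further 2 genes lie on the separate ribosomal DNA sequence, for which the lists hold no peaks.

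More clusters had a summit within 5 kb than on average after circular shifts of the summits. The summits were moved along their chromosome as a ring 1000 times, which keeps their spacing and breaks their link to the genes, and no p-value was taken from the shifts. At 5 kb the 72 clusters stood beside a mean of 57.2 and a central 95% range of 44 to 70. The 84 genes stood inside their range of 53 to 94, and the 121 summits inside theirs of 73 to 128. At 1 kb the 21 clusters were close to the shift mean of 18.4 (range 11 to 27), and at 2 kb the 35 clusters were within the range of 21 to 41 around 30.8. At 10 kb the 117 clusters were above the range of 70 to 100 around a mean of 84.8. In the upper part of the IDR list, split in equal parts by rank, the 43 clusters were within the range of 25 to 47 around a mean of 35.1. With the pooled list at 5 kb, 126 clusters stood above the range of 81 to 112. Other gene classes were not shifted, so whether such an excess is particular to microRNA genes was not tested. The share of microRNA genes was below that of all annotated genes in each of these settings. It was 32.2% beside 47.9% at 5 kb, 58.2% beside 61.2% at 10 kb, and 64.8% beside 68.2% in the pooled list.

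**Figure D2:**
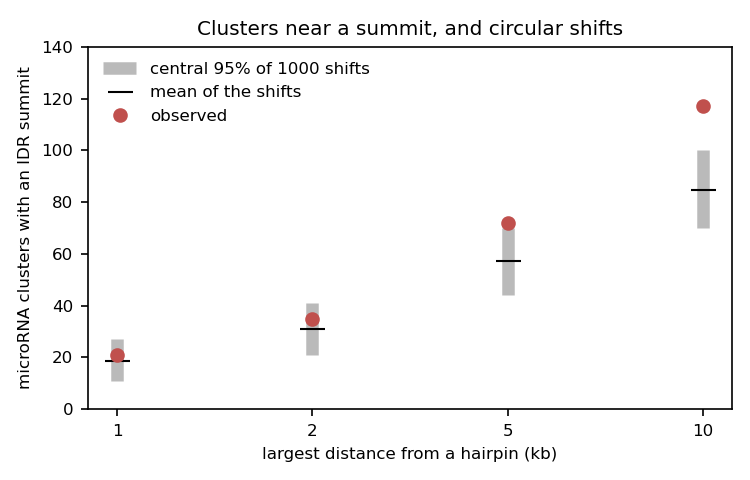
Number of microRNA clusters with an IDR summit (vertical axis) by the largest distance allowed from a hairpin in kb (horizontal axis); red points are the observed counts, black bars the mean and grey bars the central 95% range of 1000 circular shifts. The observed count lies in the range at 1 and 2 kb, just above it at 5 kb (72 against 44 to 70) and above it at 10 kb (117 against 70 to 100).

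The summits within 5 kb numbered 121, which is 1.86% of the IDR list. They were spread over the whole list, with a median rank of 3233 of 6516 and 61 of 121 in the upper part of the list when it was split in equal parts (50.4%, interval 41.6 to 59.2). Of the first 100 IDR summits, 4 were near a microRNA cluster. Of the 72 clusters, 42 had 1 summit, 22 had 2 and 8 had 3 or more. Summits lay a median of 2563 bp from the hairpin, with 26 within 1 kb and 72 more than 2 kb away. Upstream of the hairpin lay 70 (57.9%, interval 48.9 to 66.3), downstream 49 and inside a hairpin 2.

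Both replicates held 115 of the 121 summits (95%, interval 89.6 to 97.7), beside 95.4% of all IDR summits. Replicate 1 alone held 3 and replicate 2 alone held 3. The IDR list was itself made from these replicates, so this share describes the summits and tests nothing. The median ranks were 3233.5 in replicate 1 and 3243.5 in replicate 2. The highest summits kept their place in both lists, while among the lower ones the rank differed by up to 10621 places. Beyond rank 6516 lay 13 of the summits in replicate 1 and 14 in replicate 2.

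**Figure D3:**
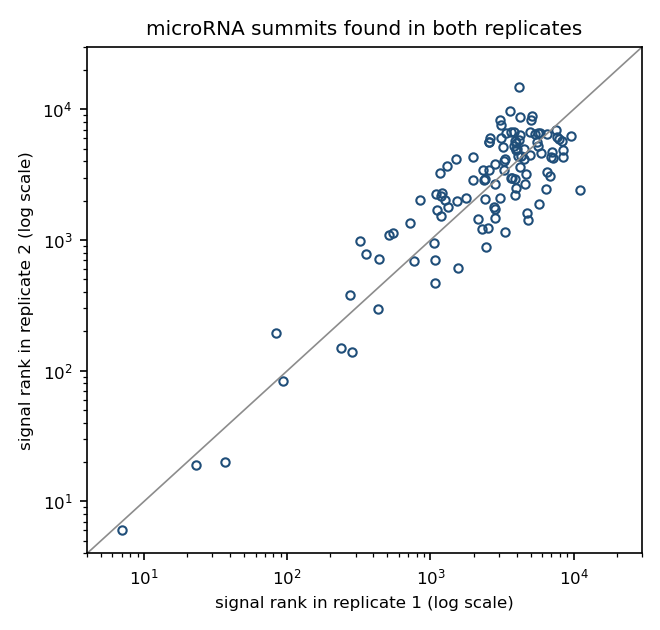
Signal rank in replicate 1 (horizontal, log scale) and in replicate 2 (vertical, log scale) of the 115 microRNA summits found in both replicates, 1 point each; the grey line marks equal ranks. The point at rank 7 and 6, a summit at mir-9377, lies near the line. Some points below rank 1000 lie away from it, such as 324 and 985 at mir-9382.

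Many of these summits lay at annotated starts of transcripts, which include the starts of microRNA primary transcripts but not the ends of hairpins. Within 500 bp of a start were 57 of 121 (47.1%, interval 38.4 to 56.0), beside 39.4% of all IDR summits. Exons away from starts held 12 (9.92%, interval 5.76 to 16.5), beside 3.91% of all IDR summits. Introns held 39 (32.2%, interval 24.6 to 41.0, beside 38.3%) and sequence between genes held 13 (10.7%, interval 6.39 to 17.5, beside 18.4%). The intervals for exons and for sequence between genes exclude the whole-list share. They treat summits of the same cluster or peak as independent, however, and these summits were taken from around annotated genes while the whole list was not. For 61 of the 121 the nearest start belonged to a gene that hosts the microRNA. Of the 57 summits at a start, 21 were at the start of a host gene (36.8%, interval 25.5 to 49.8).

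The share of these summits with either of the E-boxes searched had an interval that includes the share in the whole list. CATATG or CACATG, on either strand and within 50 bp of the summit, was present at 31 of 121 (25.6%, interval 18.7 to 34.1), beside 28.2% of all IDR summits. CATATG was at 16 (13.2%, beside 11.6%) and CACATG at 20 (16.5%, beside 18.9%). At starts the share was 8 of 57 (14.0%, beside 17.6%), and away from starts it was 23 of 64 (35.9%, beside 35.1%). Among the 15 highest summits, 6 held 1 or both E-boxes, while 7 lay at a start, 7 in an intron and 1 between genes. A match is a description of the letters and not a measured binding site.

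The highest signal was at mir-9377, a 52-bp hairpin (FBgn0283559, chrX:12665217-12665268, plus strand) in an intron of Tis11, which encodes a zinc-finger protein of messenger RNA decay. Its 6 IDR summits had ranks 5, 184, 1812, 2003, 2310 and 3906, and the first had rank 7 in replicate 1 and 6 in replicate 2. The peak at rank 5 spans chrX:12666007-12666971, with its summit 1287 bp downstream of the hairpin, and the summit at rank 184 lay 674 bp upstream (ranks 239 and 150). The summit at rank 2003 lay 272 bp from a start of Tis11 and the other 5 lay in its introns, so the microRNA and its host gene cannot be told apart as neighbours of these peaks.

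The summit of rank 18 belonged to mir-9388 (FBgn0283638, chr3L:22945116-22945207, plus strand), which lies in no gene, close to Mes2. It lay between genes, 1444 bp upstream of the hairpin and 1985 bp from the start of Mes2, and had ranks 23 and 19 in the replicates. The others at mir-9388 had rank 349 (431 and 297), in a Mes2 intron, rank 2946, 309 bp from the Mes2 start, and rank 4646. The hairpin itself lay 496 bp from an annotated start.

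At mir-2282 (FBgn0262260, chr3L:3412145-3412251, minus strand), in an intron of sty, which encodes Sprouty, an inhibitor of receptor tyrosine kinase signalling, 5 summits lay on the downstream side of the hairpin. Their ranks were 26 (37 and 20 in the replicates), 89 (93 and 83), 1624, 2612 and 5190. Those of rank 26 and 5190 lay in the same peak, and so did those of rank 89 and 1624. All 5 were in sty introns, between 6748 and 8956 bp from the nearest start of sty.

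The next clusters have known functions. The summit of rank 114 lay 115 bp from the start of lncRNA:CR31044, the annotated primary transcript of mir-279 and mir-996, which limit the number of certain sensory neurons. It was 1138 bp upstream of mir-279 (FBgn0262448, chr3R:29215585-29215684, plus strand), with rank 84 in replicate 1 and 196 in replicate 2. A second summit, of rank 1251, was 23 bp from the start of the neighbouring gene eEF1gamma, a translation elongation factor, and another had rank 6306, in an exon. The gene mir-7, which represses Yan and targets of Notch signalling in sense organs, lies in HnRNP-K and had summits of rank 200 (283 and 140) in an intron and 2220 near the HnRNP-K start. The summit at mir-9a, which restrains the formation of sense organ precursors by repressing senseless, had rank 511 (439 and 714). It lay 4282 bp upstream of the hairpin (FBgn0262373, chr3L:19565131-19565208, plus strand) and 1787 bp upstream of the start of the primary transcript, lncRNA:CR45916, and 341 bp from the start of lncRNA:CR44676.

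Among the other clusters of the 15 highest summits, mir-92a and mir-92b lie in jigr1. The gene mir-92b is known to restrain Mef2, the muscle transcription factor, in fly muscle. Their first summit had rank 704 (545 and 1132), 431 bp downstream of mir-92a (FBgn0262411, chr3R:25646506-25646600, plus strand) and 215 bp from a start of jigr1. Their second had rank 6510 (8320 and 5766), between genes. At mir-282 a summit of rank 495 (354 and 777) lay 348 bp from the start of its non-coding host, lncRNA:CR43626. At mir-9378, in an intron of CG17124, a summit of rank 307 (272 and 382) lay 171 bp upstream of the hairpin, and a second in the same peak had rank 5558.

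The remaining summits of this class were at starts of protein-coding genes. At mir-9382 the summit of rank 487 (324 and 985) was 197 bp from the start of MRP, an ABC transporter. At mir-1004, a hairpin that spans a whole intron of CG43707, the summit of rank 657 (515 and 1091) was 245 bp from the start of bowl, a zinc-finger transcription factor. At mir-9384, in an intron of tacc, which encodes a microtubule-associated protein of the centrosome, the summit of rank 737 (1068 and 467) was 255 bp from a start of tacc.

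**Figure D4:**
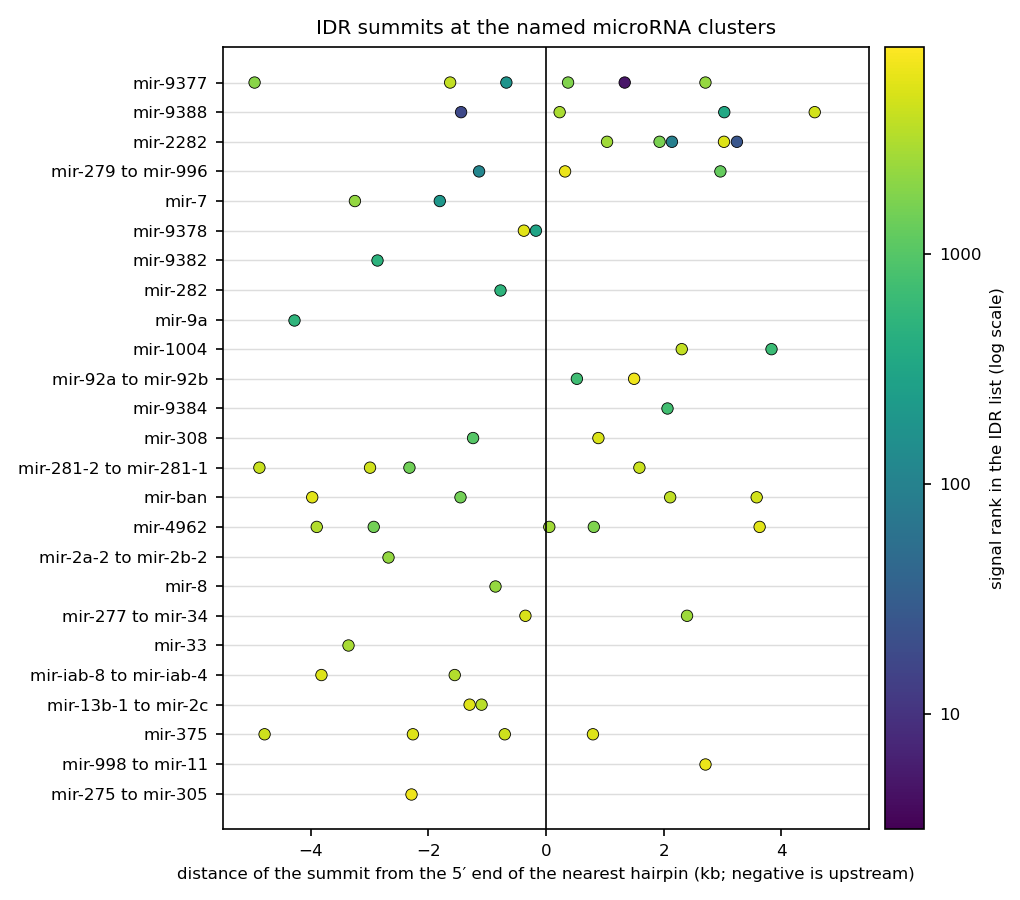
Distance in kb of each IDR summit from the 5′ end of the nearest hairpin (horizontal axis, negative is upstream on the hairpin's strand) for the named clusters, ordered by their highest summit; colour gives the signal rank on a log scale, dark for high signal. Dark points are few and stand at mir-9377 (rank 5), mir-9388 (rank 18) and mir-2282 (rank 26), and summits lie on both sides of the hairpins.

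Several summits of lower rank gathered at 4 more clusters. At mir-4962, in Tlk, which encodes Tousled-like kinase, 5 summits in introns had ranks 1519, 1741, 2665, 3233 and 5630, and the one of rank 2665 lay inside the hairpin. At bantam (FBgn0262451, chr3L:642208-642288, plus strand), which promotes growth and blocks cell death by repressing hid, 4 summits had ranks 1501 (1264 and 2027), 3804, 4582 and 5580. The last lay 192 bp from the start of lncRNA:CR43423. At mir-375 all 4 summits lay in the lower part of the list, at ranks 4322, 4331, 5217 and 5309. The first and last of them lay 11 bp and 58 bp from the starts of the neighbours kraken and CG13949. At mir-281-2 and mir-281-1, in Oda, which encodes the ornithine decarboxylase antizyme, the ranks were 1452, 4128, 4298 and 4496. The first of these differed most between replicates, with rank 2451 in replicate 1 and 888 in replicate 2. Those of rank 4128 and 4298 lay 239 bp and 75 bp from the starts of the neighbours CCT5 and SmD3.

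Grouped by known role, 23 of 48 listed microRNA genes had an IDR summit, beside 32.2% of all microRNA genes and 47.9% of all annotated genes. Counted by cluster it was 14 of 27 (51.9%), beside 58 of 176 clusters outside the lists (33.0%). A cluster takes in the windows of all its genes, so its share is not comparable with a share of single genes. These lists were drawn up with earlier results of these data known, and the shares are given as counts with no test. In the list of growth and apoptosis, 9 of 13 genes in 5 of 9 clusters had one. They were bantam, mir-308, mir-11 and 6 members of the mir-2 and mir-13 groups, whose common seed AUCACAG pairs with K boxes in messengers such as those of the cell death genes reaper and grim. The summit of rank 2254 (1985 and 2868) at the mir-2a-2 to mir-2b-2 cluster lay 332 bp from a start of spi, which encodes the EGF receptor ligand Spitz. The cluster of mir-13b-1, mir-13a and mir-2c had ranks 3430 and 5380, both in exon sequence within its own primary transcript, and the first was found in replicate 1 only.

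In the same list, mir-308 had a summit of rank 1000 (1050 and 942), 477 bp from the start of its host gene RpS23, a ribosomal protein gene, and another of rank 5164. The summit at mir-998 and mir-11 had rank 6091, lay 5 bp from a start of InR, the insulin receptor gene, and was found in replicate 2 only. The members mir-2b-1, mir-13b-2, mir-14 and mir-278 had no IDR summit within 5 kb. Across the annotation the seed AUCACAG is shared by 14 genes in 7 clusters, of which 8 genes in 4 clusters had an IDR summit. Genes with this seed thus lay both near and away from summits.

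Of the 33 seeds shared by 2 or more genes, 14 had an IDR summit at some of their genes, 17 at none and 2 at every gene. The families named here, which have known roles, are of the first kind. Both arms of a hairpin were counted, so among the 17 the mir-10404, mir-276, mir-31, mir-4966 and mir-983 sets appear with 2 seeds each. Sets within 1 cluster also share summits. These counts therefore describe seeds and not independent families, and 32.2% of all microRNA genes had an IDR summit. Seed CUUUGGU is shared by mir-9a, which had a summit, and by mir-9b and mir-9c, which had none. Seed GACUAGA is shared by mir-279 and mir-996, which had 3, and by mir-286, which had none. Of the 6 genes with seed AUUGCAC, mir-92a and mir-92b had a summit, while mir-310, mir-311, mir-312 and mir-313 had summits in the pooled list only.

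Among the 11 genes of neural and sense organ function, 6 had an IDR summit, and by cluster it was 5 of 10. The shares were 32.2% of all microRNA genes and 47.9% of all annotated genes, and the list is too small to set apart. Besides mir-7, mir-9a, mir-279 and mir-996, the 6 included mir-8, a regulator of body growth and of the gene Atrophin, with rank 2315 (2414 and 2057), and mir-34, a regulator of ageing. The genes mir-124, mir-bft (also called mir-263a), mir-263b, mir-276a and mir-276b had none within 5 kb of their hairpins.

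All 4 metabolic genes, in 3 clusters, had a summit, none of them among the highest. The shares were 32.2% of all microRNA genes and 47.9% of all annotated genes, and 3 clusters are too few to set a list apart. At mir-33, within the lipid regulator SREBP, it had rank 2858 (2565 and 3457) and lay in an exon 652 bp from a start of SREBP. At mir-277, which regulates breakdown of branched-chain amino acids, and mir-34 the ranks were 2540 (2413 and 2953) and 4985 (5927 and 4658). At mir-275 and mir-305 it was 6465 (7547 and 6964), close to the end of the list.

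The Hox list held mir-iab-4, mir-iab-8 and mir-10, which repress Hox genes. The first 2 come from opposite strands of the same locus, and their 5p sequences printed above differ from each other. Their summits had ranks 3197 (5721 and 1903) and 5213 (5639 and 5211), and the first differed between replicates. The gene mir-10 had 8 summits in the pooled list and none in the IDR list. The 8 genes of the mir-309 cluster, whose microRNAs clear maternal messengers in the early embryo, had no IDR summit, and each had 4 pooled summits. The let-7, mir-100 and mir-125 hairpins, which time the change from larva to adult, had no summit within 5 kb in either list.

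The highest pooled summits at clusters with no IDR summit were just past the length of the IDR list. Signal ranks of the highest summits at clusters with an IDR summit were the same in each list. A place past that length therefore reflects how the lists relate and is not a result about these clusters. They were at mir-4948 (pooled rank 6702, 183 bp from the start of Chchd3), mir-10 (6783, 25 bp from the start of lncRNA:CR45915) and mir-4918 (6953, 84 bp from the start of Sgt1). At mir-310 to mir-992 the rank was 7238 and at mir-2492 it was 7302. The summit at mir-10 had rank 8211 in replicate 1 and 4967 in replicate 2.

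A hairpin can lie far from the start of its gene, so primary transcripts were examined as well. The RefSeq gene table names 23 primary transcripts that hold 37 of the microRNA genes, with lengths from 986 to 43950 bp and a median of 5739 bp. In the transcript or within 5 kb of it, 17 had an IDR summit and 6 had none, and the summits numbered 47. Of all lncRNA and asRNA genes 42.0% had an IDR summit within 5 kb, with no allowance for length. Within 500 bp of one of their own annotated starts 4 of the 23 had a summit (17.4%), beside 10.9% of all lncRNA and asRNA genes. These were the transcripts of mir-279 and mir-996 (115 bp, rank 114), mir-8 (126 bp, rank 2315), mir-184 (339 bp, rank 497) and mir-316 (257 bp, rank 5655). For mir-8 and mir-184 the start concerned was not the first of the gene.

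For 6 of the 17 a summit lay in the transcript or within 5 kb of it, although the hairpins had none within 5 kb. They were the transcripts of mir-252, mir-14, mir-184, mir-315, mir-276a and the let-7 cluster. Only those of mir-184 and mir-276a held summits inside the transcript. For the others every summit lay outside it, as at mir-14 (4520 bp upstream of the start) and mir-315 (3972 bp upstream). The transcript of mir-184 had 6 summits in or near it, with ranks 497 (654 and 369), 757, 830, 1772, 2431 and 4749. Those of rank 497 and 2431 lay in the same peak. The one of rank 830 lay 4858 bp upstream of the transcript start, and the hairpin lay 15307 bp from that start. The transcript of mir-276a, a microRNA of memory formation, was the longest at 43950 bp and also had 6. The highest of these, rank 401 (465 and 343), lay 7364 bp from its start, and the hairpin lay 41727 bp from it. For let-7, the single summit of rank 370 (329 and 439) lay 21896 bp from the start of a transcript 17416 bp long and so past its end.

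The bantam transcript, lncRNA:CR43334, is 15466 bp long with its hairpin 13773 bp from the start, and had 8 summits in or near it. The highest, rank 1218 (1089 and 1393), lay 6420 bp from its first start, and the lowest had rank 6372. None of the 8 was within 500 bp of an annotated start of the transcript, and the nearest was 1040 bp away. Transcripts with no IDR summit were those of mir-10, mir-bft, mir-1000, mir-124, the mir-309 cluster, and mir-1002 with mir-968.

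**Figure D5:**
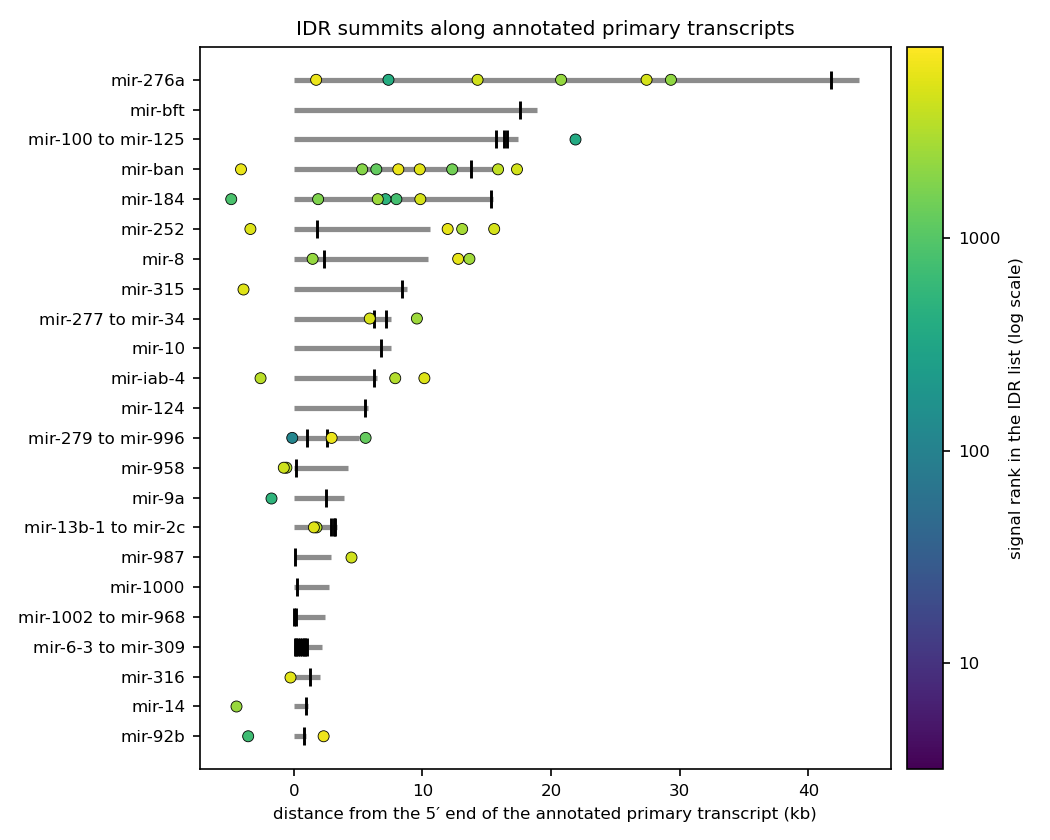
Annotated primary transcripts of microRNA genes as grey lines from their 5′ end (0 kb on the horizontal axis), ordered by length, with hairpins as black ticks and IDR summits as circles coloured by signal rank on a log scale. Circles lie along the transcripts of mir-276a, mir-ban and mir-184, far from the hairpin in most cases, and 6 transcripts have none.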

How the data were processed

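ChIP-seq peak lists were used as the authors deposited them, in dm6 coordinates per the labels. The deposited signal value has no stated scale and ranked peaks within a list only. The deposited −log10 q-value is tied at its highest value for many peaks and ranked nothing. The authors' pooled list and each replicate's list hold 30000 peaks, the IDR list 6516. Per the records deposited with them, lists were called against a control file, which was not used here. The sources used here do not name the aligner or peak caller, and depth is unknown.

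Genes were those of the Ensembl annotation of Release 6, without transposable elements and without 485 mature microRNA entries. Positions are 1-based. A summit was near a gene within 5 kb of its ends. Hairpin ends did not count as starts. Replicates were matched within 100 bp. Summits were shifted 1000 times with a fixed seed, and the counting was tested on simulated data. Intervals are 95% Wilson intervals. Python 3.11.15, numpy 2.4.6, pandas 2.3.3, scipy 1.17.1 and matplotlib 3.10.9 were used.

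Named are clusters with the 15 highest summits, those with 3 or more, members of the role lists, and the 5 clusters with the highest pooled summits but no IDR summit. A few transcripts outside this rule were chosen after their values were seen. The genes and lists were chosen with earlier results of these data known. Alternatives were other distances, lists, replicates, joining distances, matching limits and motif windows.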

Additional observations from a re-analysis of the deposited data

How the results depend on the processing

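The counts followed the distance and the list. Clusters with a summit numbered 21, 35 and 117 within 1, 2 and 10 kb, against 72 within 5 kb, genes 21, 42 and 152 against 84, and summits 26, 49 and 254 against 121. All annotated genes near a summit made up 28.1%, 34.5% and 61.2% at those distances, and the microRNA genes 8.05%, 16.1% and 58.2%. In the upper part of the IDR list there were 43 clusters, 51 genes (19.5%, beside 31.7% of all annotated genes) and 61 summits, and in the pooled list 126 clusters and 169 genes. Without replicate 1 or without replicate 2, taking the other replicate's 6516 highest peaks, clusters numbered 72 and 71, genes 83 and 83, and summits 130 and 119. Joining genes within 1 or 10 kb gave 74 of 211 and 71 of 199 clusters. Counting summits in or within 5 kb of the annotated primary transcripts too, an alternative chosen after seeing the data, gave 78 clusters. Leaving out hairpins within 500 bp of a start, also chosen after seeing the data, gave 67 of 207 genes. The share of summits in both replicates was 76.9% with a limit of 50 bp, and 100% with 200 bp or any overlap of intervals. The share with CATATG or CACATG was 10.7% within 25 bp (17.4% of all IDR summits), 30.6% within 100 bp (38.4%), 32.8% in the upper part of the list (32.5%), and 21.5% (29.8%) and 22.7% (26.0%) in the lists without replicate 1 and without replicate 2, with the share over all summits of the same list in parentheses. No paired analysis was possible because there is 1 group. Depth is unknown, and a cluster with no IDR summit was not shown to lack binding.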
